A study of Mus musculus with 10 samples.

Results

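The molecular motors of the cytoskeleton were examined at birth (postnatal day 0) in brains of mice with a single X chromosome and of XX females; each RNA was from a whole brain. The probe sets were those with 1 gene symbol beginning with Kif followed by a digit or c, Klc1 to Klc4, Dync, Dynl or Dctn: 48 of the 12422 probe sets of the array that are not controls, for 36 of 8251 named genes. They comprised 11 kinesins of axonal or neuronal transport (15 probe sets), 7 kinesins of cell division (8 probe sets), 3 other kinesins (4), 2 kinesin light chains (5), 8 dynein chains (10) and 5 dynactin subunits (6). The RNA of each sample was hybridised to an Affymetrix MG-U74Av2 array, 10 in all. XmO animals had 39 chromosomes with a maternal X and came, like the XX_Paf females (40 chromosomes) they are compared with, from the cross written C57BL/6J x C3H/Paf; each of these groups had 3 arrays. XpO animals had 39 chromosomes with a paternal X, and XX_InX females 40; both came from the cross written In(X)/C3H x C57BL/6J and had 2 arrays per group. Paf (patchy fur) is a mutation and In(X) an inversion of the mouse X chromosome, and the labels do not say which animals inherited them. If the crosses are written mother first, the single X of XmO and of XpO animals came from a C57BL/6J parent. XX females then also had an X from the other parent, so that XO and XX would differ in the kind of X as well as in number. All groups share C57BL/6J and C3H parents, and XmO and XpO animals differed in the cross as well as in the origin of their X. The labels do not say whether an array holds 1 animal or a pool, though that of XX_InX 1 is worded in the plural, so that p-values measure the spread between these samples, which may be technical.

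Kinesins and cytoplasmic dynein are ATP-driven motors that walk along microtubules. In axons most kinesins carry vesicles, organelles and RNA outward from the cell body, while dynein, aided by the dynactin complex, carries cargo back. Another set of kinesins acts in the mitotic spindle, where they slide microtubules, shorten them, move chromosomes or build the midzone, and their genes are active in dividing cells. In the newborn brain both kinds of cell are present, since postmitotic neurons are extending axons while progenitors are still dividing.

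Promoters of the mitotic and axonal kinesins are shown first, because the 2 sets are compared below. The letters TTTGAA, the core of the cell cycle homology region through which many genes of late cell cycle are known to be repressed in resting cells, were searched on both strands from 250 bases before to 50 after the annotated start, together with CCAAT, the site of the factor NF-Y; the letters of the 2 motifs do not overlap each other in the windows printed. TTTGAA was present in 6 of 6 promoters of mitotic kinesin genes that RefSeq's table for GRCm38.p6 gave (Kif2c, Kif4, Kif11, Kif22, Kif23 and Kifc1) and in 1 of 10 promoters of axonal kinesin genes (1 of 8 genes: the downstream start of Kif1a). It was in 17.9% of the table's 32851 promoters. CCAAT was in 5 of the 6 mitotic promoters, 4 of the 10 axonal ones and 37.4% of all, and both motifs together were in 5 of the 6, 0 of the 10 and 6.95%. A match of letters is a description and not a proven site. Each line gives 90 bases in the direction of transcription, with matches to either motif on either strand in capitals (TTCAAA and ATTGG are the reverse complements).
Kif11, GRCm38.p6 chr19:37376292-37376381, plus strand, the 90 bases up to the start: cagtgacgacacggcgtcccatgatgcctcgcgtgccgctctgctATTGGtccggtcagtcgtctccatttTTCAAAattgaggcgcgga
Kif22, GRCm38.p6 chr7:127042421-127042510, minus strand, the 90 bases up to the start: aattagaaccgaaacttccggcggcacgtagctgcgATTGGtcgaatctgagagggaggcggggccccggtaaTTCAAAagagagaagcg
Kif23, GRCm38.p6 chr9:61946770-61946859, minus strand, from 60 bases before to 30 after the start: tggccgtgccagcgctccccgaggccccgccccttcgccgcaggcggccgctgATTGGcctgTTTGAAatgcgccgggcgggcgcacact
Kif4, GRCm38.p6 chrX:100626005-100626094, plus strand, from 60 bases before to 30 after the start: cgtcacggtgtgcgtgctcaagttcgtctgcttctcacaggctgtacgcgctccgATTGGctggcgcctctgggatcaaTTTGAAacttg
Kifc1, GRCm38.p6 chr17:33890604-33890693, minus strand, from 60 bases before to 30 after the start: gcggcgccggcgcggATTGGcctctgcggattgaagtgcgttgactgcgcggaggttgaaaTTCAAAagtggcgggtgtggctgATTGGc
Kif2c, GRCm38.p6 chr4:117178818-117178907, minus strand, 90 bases beginning 135 before the start: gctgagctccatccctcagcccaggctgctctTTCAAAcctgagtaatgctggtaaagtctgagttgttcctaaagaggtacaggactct
Kif1a, GRCm38.p6 chr1:93101875-93101964, minus strand, the upstream start, 90 bases up to it: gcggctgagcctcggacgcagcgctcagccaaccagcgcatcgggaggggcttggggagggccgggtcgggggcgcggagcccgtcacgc
Kif5c, GRCm38.p6 chr2:49619196-49619285, plus strand, the 90 bases up to the start: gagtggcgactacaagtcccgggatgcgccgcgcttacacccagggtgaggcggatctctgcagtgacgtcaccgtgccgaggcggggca

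In the windows shown, the hexamer lay 13 bases before the start in Kif11, 11 bases before it in Kif22, and beginning at base 3, base 20 and base 2 after it in Kif23, Kif4 and Kifc1, and 97 bases before it in Kif2c; Kif22 had a second copy farther upstream, outside its window. The windows of Kif1a (upstream start) and Kif5c, shown for the axonal kinesins, hold neither motif.

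The arrays were comparable in overall intensity, with a mean after trimming 2% at each end of 497 on every array over the probe sets that are not controls. Xist, the RNA made from an inactive X, matched the labels: it was at 21.3 to 49.9 on the 5 XO arrays and at 1673 to 4082 on the 5 XX arrays. All 9 neuronal markers examined were measured and tested, and their summed intensity was 59932 to 64882 in XmO, 62768 to 63902 in XX_Paf, 64448 to 69447 in XpO and 63147 to 67986 in XX_InX. The sum over 3 tested blood genes followed the cross, at 11170.1 to 17148 in XmO and 11626 to 16870.1 in XX_Paf against 5818 to 7335 in XpO and 3985 to 5987 in XX_InX. On XX_Paf 2 the sum over 3 tested skeletal muscle genes was 3254, while it did not pass 1066 on any other array. As a gauge of background, the brightest of 9 probe sets for Y-linked genes, which have no template in these animals, was at 33.6 to 137 depending on the array.

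Of the 48 motor probe sets, 42 were bright enough to be tested (33 genes); the 6 others were both probe sets of Kif9, the dimmer ones of Kifc2 and Kif20a, and those of the dynein light chain genes Dynlt1b and Dynlt3 (both with suffix r). Of the 42, 31 were above the brightest Y-linked probe set on every array and 11 were no brighter on at least 1 array. Probe set suffixes s and f mark probes that can match several transcripts or a gene family, and i and r mark sets with fewer probes or relaxed design rules; a tested member's suffix is given where it is described. The motors varied among like samples about as much as other genes: the median SD within groups was 0.21 on the log2 scale for the 42, against 0.23 for all 8695 tested probe sets. The highest array was under 1.5 times the lowest for 12 of the 42, and this held for 29.5% of all tested probe sets. The narrowest range was that of Dctn1, which encodes p150Glued, the subunit through which dynactin binds dynein and microtubules. Its intensity was 2348, 2199.5 and 2082 in XmO, 2112, 2109 and 2363 in XX_Paf, 2249.8 and 2243 in XpO and 2182 and 2191 in XX_InX, with all groups overlapping except XpO, which lay just over XX_InX. The estimate for XO against XX was 0.025 (SE 0.078).

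**Figure D1:**
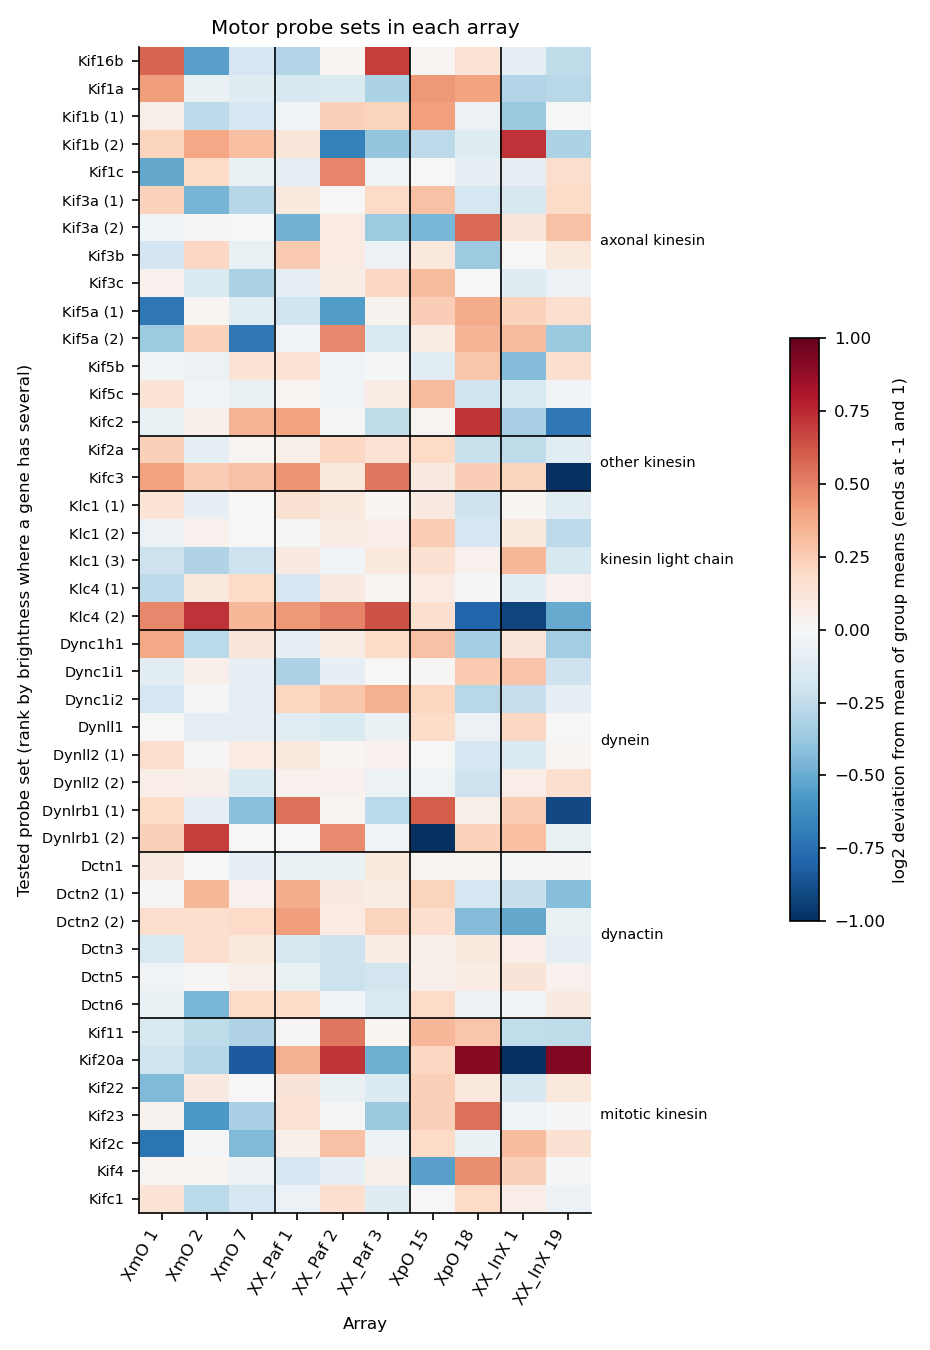
Each row is 1 of the 42 tested motor probe sets and each column an array; colour gives the log2 intensity minus the mean of the 4 group means, from -1 (blue) to 1 (red). Most cells are pale, Kif1a is red in XpO and XmO 1, and the dimmer Klc4 probe set is red across XmO and XX_Paf and blue in XpO 18 and XX_InX.

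The first question was what loss of 1 X chromosome does to the motors, over both crosses with equal weight. No motor probe set passed the test: 0 of 42 were called by limma at an adjusted p under 0.05, where 0.0115% of all tested probe sets did, and 1 of 42 had an unadjusted p under 0.05, against 2.6% of all. Estimates were higher in XO for 30 and lower for 12, with a median log2 fold change of 0.044 (all tested probe sets 0.00042). The 1 with an unadjusted p under 0.05 was Kif1a, the kinesin-3 motor that carries synaptic vesicle precursors along axons. Its intensity was 1272, 911 and 876 in XmO and 852, 862 and 766 in XX_Paf, and 1287 and 1261 in XpO and 779 and 789 in XX_InX. Every XO array was over every XX array, but XmO 2 and XmO 7 only slightly. The log2 fold change was 0.49 (SE 0.12; limma adjusted p = 0.9995), and it stayed at 0.41 to 0.54 when each array was left out in turn. Groups that did not overlap within either cross were found for this 1 member of 42, against 0.851% of all tested probe sets. Within the crosses the Kif1a estimate was 0.28 in XmO against XX_Paf (SE 0.15, 0.11 to 0.38 when arrays were left out) and 0.70 in XpO against XX_InX (SE 0.18); their difference, -0.42 (SE 0.23), did not pass either (limma adjusted p = 0.857).

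**Figure D2:**
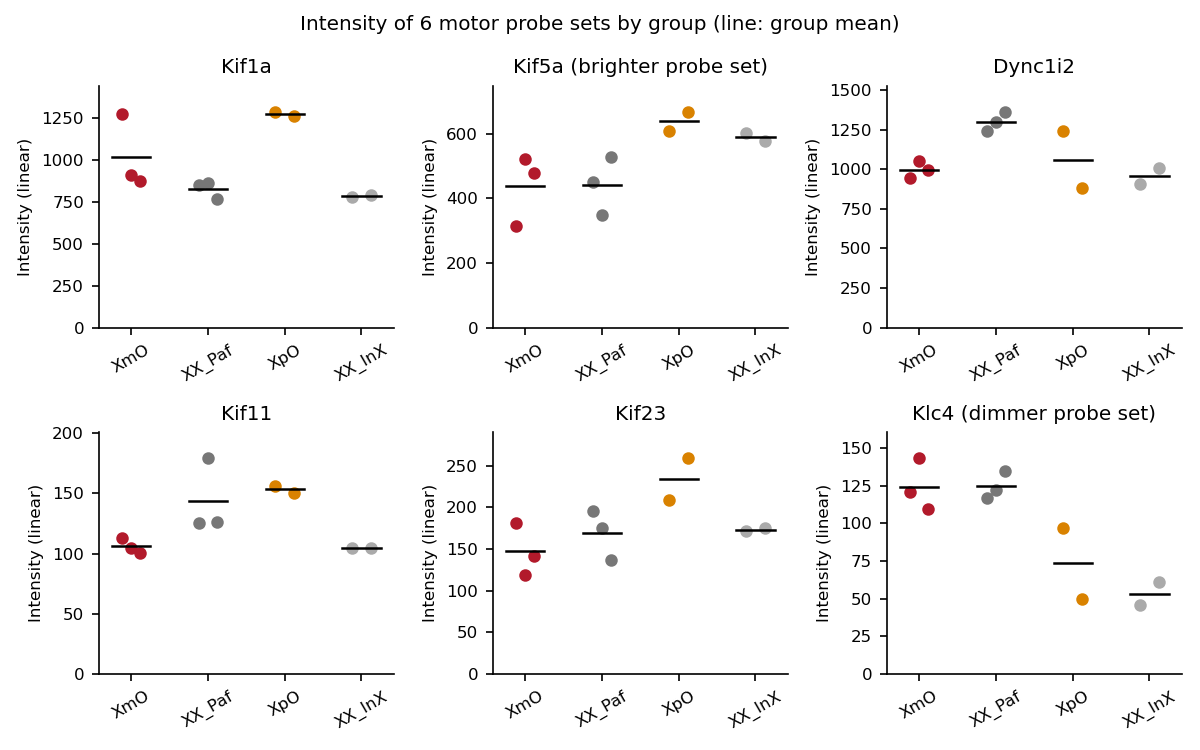
Points are the intensities of single arrays (linear scale from 0) by group for 6 motor probe sets, with a line at the group mean. Kif1a is higher on all 5 XO arrays, Kif11 is lower in XmO than in XX_Paf and higher in XpO than in XX_InX, and the brighter Kif5a and dimmer Klc4 probe sets separate the crosses.

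The other axonal kinesins did not keep XO apart from XX in both crosses. Kif5a, Kif5b and Kif5c encode the heavy chains of conventional kinesin, the first and last of them largely in neurons. Kif5c was at 984, 882 and 851 in XmO and 913, 877 and 943 in XX_Paf, and at 1118 and 782 in XpO and 805 and 878 in XX_InX; the groups overlapped, and the estimate for XO against XX was 0.071 (SE 0.11). Kif5b, the form made in most cell types, was at 503, 492 and 566 in XmO and 567, 504 and 509 in XX_Paf, and at 478 and 621 in XpO and 379.9 and 575 in XX_InX, likewise overlapping (0.10, SE 0.14). Of Kif5a the brighter probe set (suffix s) had an estimate of 0.043 (SE 0.16) and the dimmer one (suffix i) -0.073 (SE 0.31); both are described with the crosses below. Kif3a, Kif3b and Kif3c encode the motor subunits of heterodimeric kinesin-2, which works in axons and in cilia. The brighter Kif3a probe set was at 297, 184 and 208 in XmO and 271, 254 and 291 in XX_Paf, and at 311 and 225 in XpO and 227 and 290.0 in XX_InX. Its estimate was -0.12 (SE 0.17). The dimmer Kif3a probe set was at 93.4, 97.3 and 96.6 in XmO and 69.6, 102 and 74.9 in XX_Paf, and at 70.1 and 143 in XpO and 105 and 118 in XX_InX (0.042, SE 0.27). Neither probe set kept XO apart from XX in both crosses. Kif3b (-0.15) and Kif3c (0.023), the 2 Kif1b probe sets (0.050 and 0.11), Kif1c (-0.17) and Kif16b (0.040) complete the estimates for XO against XX, with Kif3b at 374, 492 and 403 in XmO and 510.1, 449.6 and 408 in XX_Paf, and at 459 and 330.2 in XpO and 426 and 459 in XX_InX (-0.18 for XpO against XX_InX, SE 0.21). Kifc2, a minus-end-directed kinesin found in neurons, had 0.47 (SE 0.31), but was dim, at 65.0, 70.9 and 86.9 in XmO and 90.6, 68.0 and 57.6 in XX_Paf, and at 69.7 and 112 in XpO and 54.7 and 41.7 in XX_InX. None of the XmO and XX_InX arrays exceeded the Y-linked background.

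Light chains tie conventional kinesin to its cargo, and 0 of their 5 probe sets passed by limma in XO against XX. The brightest Klc1 probe set was at 5710.2, 4906 and 5205 in XmO and 5792, 5555 and 5274 in XX_Paf, and at 5534 and 4511 in XpO and 5264 and 4797 in XX_InX (log2 fold change -0.041, SE 0.083). The second (suffix f) was at 1043, 1118 and 1086 in XmO and 1075, 1143 and 1138 in XX_Paf, and at 1296 and 968 in XpO and 1163 and 908 in XX_InX (0.038, SE 0.11). The groups overlapped for both. The third (suffix i) was at 468, 438 and 467 in XmO and 572, 528 and 577 in XX_Paf without overlap, and at 599.5 and 555 in XpO and 679 and 482 in XX_InX. Its estimate was -0.14 (SE 0.12) in XO against XX and -0.29 (SE 0.15, limma adjusted p = 0.887) in XmO against XX_Paf, and the brighter probe sets had smaller ones there (-0.073 and -0.048). Among the other kinesins, Kif2a, a microtubule depolymerase that restrains axon branching, had 0.046 (SE 0.11). Kifc3, a minus-end-directed kinesin, had 0.48 (SE 0.32). That value rested on 1 array: Kifc3 was at 207, 187 and 192 in XmO, 214, 169 and 226 in XX_Paf and 167 and 186 in XpO, but at 184 and 41.6 in XX_InX 1 and 19, and the estimate without XX_InX 19 was -0.053.

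The dynein chains had estimates on both sides of 0 in XO against XX (5 of 8 tested probe sets higher and 3 lower, median 0.0014), and 0 passed by limma. Dync1h1, the heavy chain that holds the motor domain of cytoplasmic dynein, was at 3999.5, 2535 and 3316 in XmO and 2882, 3209.5 and 3459.6 in XX_Paf, and at 3741 and 2409.9 in XpO and 3329.6 and 2402 in XX_InX. It varied more between like arrays than between groups (log2 fold change 0.055, SE 0.15). Of the intermediate chains, which link dynein to dynactin, Dync1i1, a form largely of neurons (suffix r), was at 2623, 2916 and 2665 in XmO and 2259, 2659 and 2819 in XX_Paf, and at 2837 and 3382 in XpO and 3423 and 2446 in XX_InX (0.094, SE 0.11). The groups overlapped. Dync1i2, the form made in most cells, was at 943, 1055 and 996 in XmO and 1242, 1296 and 1362 in XX_Paf, and at 1239.7 and 881 in XpO and 908 and 1009.8 in XX_InX. All 3 XmO arrays were below all 3 XX_Paf arrays, whereas XpO 15 was high and XpO 18 low. The estimate was -0.38 (SE 0.14; limma adjusted p = 0.877) in XmO against XX_Paf and 0.13 (SE 0.17) in XpO against XX_InX. The light chains Dynll1 and Dynll2, small hub proteins that bind dynein and many other partners, had estimates of 0.0016 (suffix f) and 0.0011 in XO against XX, and the dimmer Dynll2 probe set (suffix f), at 901, 891 and 785 in XmO and 889.5, 888 and 828 in XX_Paf, and at 838 and 747 in XpO and 904 and 968 in XX_InX, had -0.13 (SE 0.094). The 2 probe sets of Dynlrb1, a roadblock light chain, had estimates of opposite sign. The brighter (suffix i) was at 2709.6, 2239 and 1781 in XmO and 3491, 2428 and 1981 in XX_Paf, and at 3625 and 2478 in XpO and 2849 and 1276 in XX_InX, with 0.65 for XpO against XX_InX (SE 0.35). The dimmer (suffix r) was at 606, 829 and 516 in XmO and 517, 714 and 499 in XX_Paf, and at 199 and 604 in XpO and 634 and 489 in XX_InX, with -0.68 (SE 0.40) for the same comparison, which was 0.12 without XpO 15. For dynactin, besides Dctn1, estimates for the 5 other tested probe sets were -0.037 (Dctn6), 0.046 and 0.15 (Dctn2, dynamitin; the first with suffix f), 0.072 (Dctn5) and 0.12 (Dctn3).

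**Figure D3:**
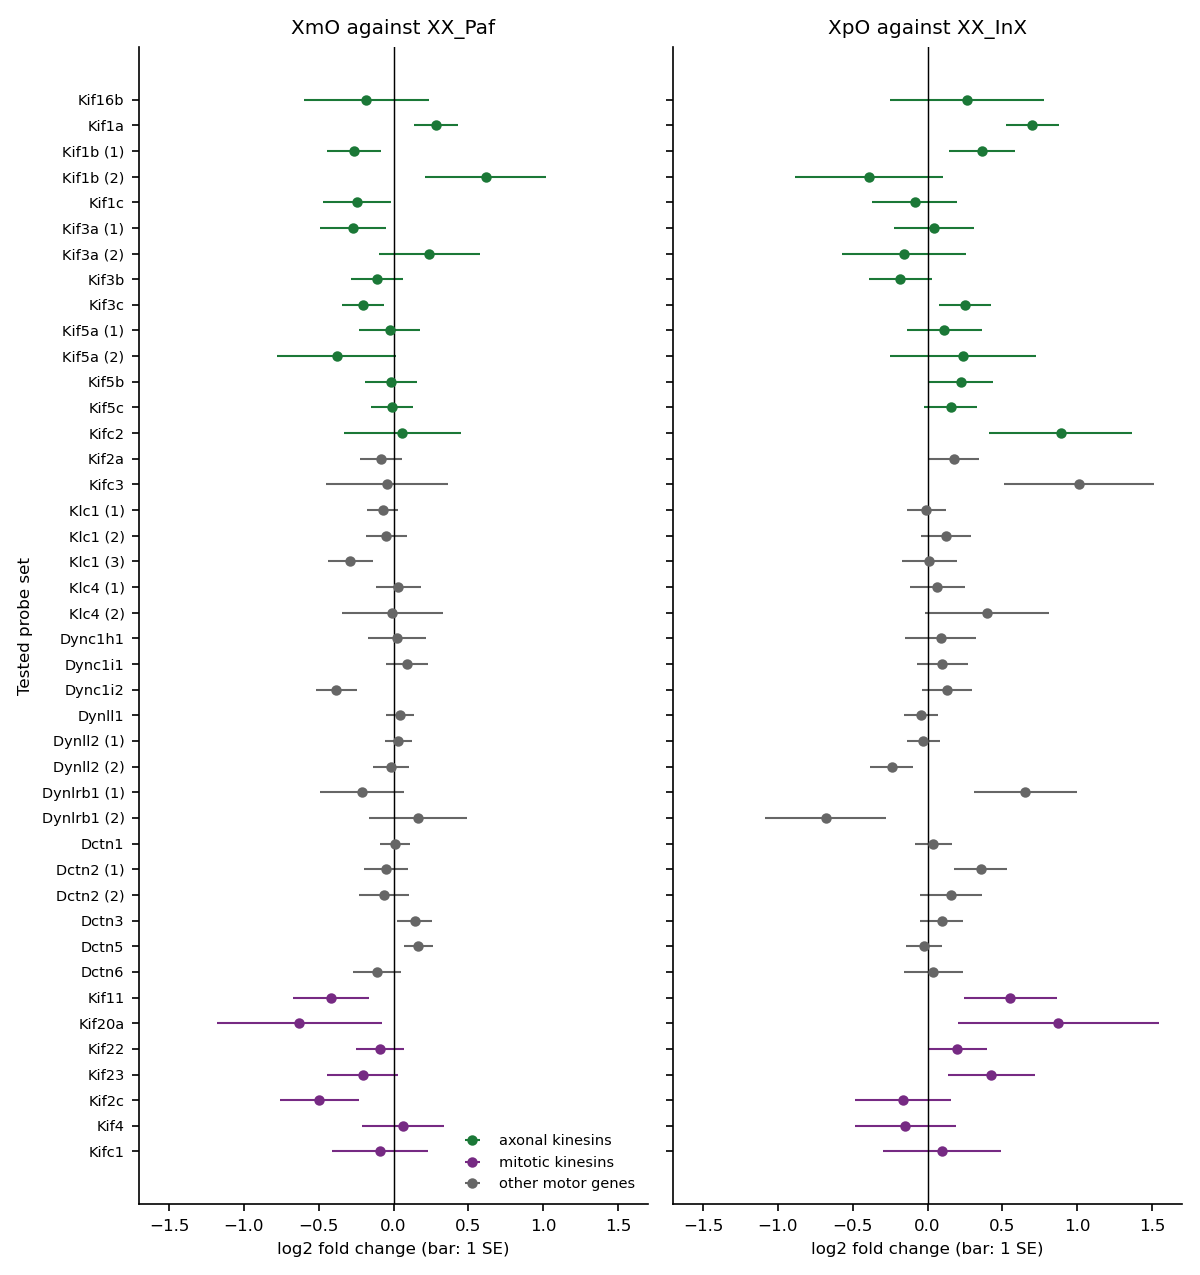
Points are the log2 fold changes of the 42 tested motor probe sets (bars, 1 SE) in XmO against XX_Paf (left) and XpO against XX_InX (right), 2 comparisons that share no array. Of the 7 mitotic kinesins, 6 lie left of 0 in the left panel and 5 lie right of 0 in the right panel, and none passed the test in either.

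The mitotic kinesins were set against the axonal ones next, each gene by its brightest tested probe set. The lists differ in brightness: on at least 1 array the mitotic Kif2c, Kif11, Kif20a and Kifc1 did not exceed the Y-linked background. Of the axonal list this held for Kif16b and Kifc2. In XO against XX the median log2 fold change was 0.043 over 11 axonal genes and 0.054 over 7 mitotic genes, a difference of -0.011. Within the crosses the medians of both lists had the same sign. In XmO against XX_Paf the axonal median was -0.11 and the mitotic one -0.21 (all tested probe sets 0.0021), with 6 of 7 mitotic estimates lower in XmO. In XpO against XX_InX they were 0.22 and 0.20 (all -0.011), with 5 of 7 mitotic estimates higher in XpO. Axonal minus mitotic was 0.095 in the first and 0.023 in the second. These differences moved when single arrays were left out. The first grew to 0.28 without XmO 1 and kept its sign throughout (0.057 to 0.28), whereas the second was -0.22 without XpO 15. On single arrays the mean of the axonal list minus that of the mitotic list was 0.18, 0.086 and 0.22 in XmO and -0.062, -0.20 and 0.22 in XX_Paf, and 0.091 and -0.25 in XpO and 0.035 and -0.17 in XX_InX, overlapping in both crosses. These medians are descriptions; no motor was called in either comparison (0 of 42 by limma in each, against 0.023% and 0.0115% of all tested probe sets). At an unadjusted p under 0.05 stood 1 member in XmO against XX_Paf (Dync1i2; 5.53% of all) and 1 in XpO against XX_InX (Kif1a; 3.38% of all). The groups did not overlap for 6 of 42 members in XmO against XX_Paf (13.9% of all) and for 10 of 42 in XpO against XX_InX (23.4% of all).

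Kif11 encodes Eg5, the motor that pushes spindle poles apart. It was at 113, 104 and 101 in XmO and 125, 179 and 126 in XX_Paf, and at 156 and 150.5 in XpO and 105 and 104 in XX_InX. XmO lay wholly under XX_Paf, where the highest array was XX_Paf 2, which also stood apart in muscle genes, and XpO lay wholly over XX_InX. The values are close to background: XmO 7 did not exceed its Y-linked gauge of 137, and the gauges of the XX_InX arrays were 103 and 97.5. The estimate was -0.42 (SE 0.25) in the Paf cross and 0.55 (SE 0.31) in the In(X) cross; the difference, -0.97 (SE 0.40), did not pass (limma adjusted p = 0.832) and was -0.80 without XX_Paf 2. Kif23 encodes the midzone motor MKLP1, needed for the last step of cell division. It was at 181, 119 and 142 in XmO and 196, 175 and 137 in XX_Paf, overlapping, and at 209 and 259 in XpO and 171 and 175 in XX_InX, not overlapping. Kif20a, a second midzone kinesin, scattered widely on its tested probe set (suffix f), at 89.3, 84.1 and 57.6 in XmO and 131, 168 and 72.9 in XX_Paf, and at 118 and 193 in XpO and 34.8 and 195 in XX_InX; XmO 7, XX_Paf 3 and XX_InX 1 did not exceed the Y-linked background. Kif2c, which encodes the depolymerase MCAK of centromeres, was at 82.0, 134 and 100 in XmO and 141, 167 and 132 in XX_Paf, and at 156 and 130.0 in XpO and 169 and 152 in XX_InX. Its estimates were -0.50 (SE 0.26) and -0.17 (SE 0.32), and -0.33 (SE 0.21) over both. Kif22, a motor that pushes on chromosome arms (suffix r), was at 495, 713 and 668 in XmO and 734, 635 and 610.5 in XX_Paf, and at 791 and 722 in XpO and 599.9 and 722 in XX_InX, with overlap in both crosses. Kifc1, a minus-end-directed spindle motor, had an estimate of 0.0022 (SE 0.25) in XO against XX on a probe set with suffix f. That probe set did not exceed the Y-linked background on 5 of 10 arrays, among them both XX_InX arrays.

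Kif4, a chromosome-arm and midzone motor, is 1 of 2 X-linked members, and so XO animals have 1 copy of it. It was at 147, 146 and 139.9 in XmO and 129, 136 and 151 in XX_Paf, and at 99.5 and 199 in XpO and 171 and 143 in XX_InX. The groups overlapped in both crosses, XpO spanned the widest range of the 4, and the estimate for XO against XX was -0.043 (SE 0.22). The other X-linked member, the light chain gene Dynlt3, was too dim to be tested, at 45.3, 42.7 and 29.0 in XmO and 26.8, 45.2 and 26.9 in XX_Paf, and at 51.5 and 51.1 in XpO and 41.3 and 48.3 in XX_InX, above the Y-linked background on 1 array of 10.

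XmO against XpO addresses the origin of the single X, with the cross differing at the same time. Of the mitotic kinesins 6 of 7 had lower estimates in XmO, with a median of -0.46, against -0.23 for the 11 axonal genes and 0.00036 for all tested probe sets. Axonal minus mitotic was 0.23, but -0.029 without XmO 1. The mean log2 deviation of the mitotic list was -0.19, -0.18 and -0.30 on the XmO arrays and 0.097 and 0.35 on the XpO arrays. For Kif11, Kif20a, Kif22 and Kif23 all XmO arrays were below both XpO arrays. Their estimates were -0.54 (SE 0.28), -0.995 (SE 0.61), -0.29 (SE 0.18) and -0.68 (SE 0.26). On XmO 7 neither Kif11 nor Kif20a exceeded the Y-linked background, so their estimates are inexact. Kif2c, likewise not above it on XmO 7, had -0.46, Kifc1 -0.20 and Kif4 0.037. Of all 42 motor probe sets 0 passed by limma (0.0115% of all tested probe sets did), 4 had an unadjusted p under 0.05 (4.83% of all) and 11 had groups that did not overlap (17.4% of all). The 4 were Kif23 (limma adjusted p = 0.969), the brighter Kif5a probe set (-0.58, SE 0.23; -0.72 to -0.35 when each array was left out), the dimmer Dynlrb1 probe set (0.88, and 0.077 to 1.68 with arrays left out; brighter -0.44) and the dimmer Klc4 probe set (0.83, and 0.35 to 1.31 with arrays left out; brighter -0.018). Kif1a had -0.34 (SE 0.16; -0.51 to -0.24 with arrays left out), and the brighter Dynll2 probe set, at 9453, 8424 and 8844 in XmO and 8328 and 7434 in XpO, had 0.18 (SE 0.10). On XX arrays that probe set was at 9019, 8484 and 8611 in XX_Paf and 7595 and 8496 in XX_InX, which overlapped.

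Genes that work beside the mitotic kinesins were examined in the same comparisons. Of 19 spindle and division genes listed, 16 were measured and 14 tested; 12 of the 14 had lower estimates in XmO than in XpO (median -0.24), and 0 passed by limma. Those of smallest p were the mitotic kinase gene Cdk1 at 299 ± 72.8 in XmO and 399 ± 16.9 in XpO, cyclin B2 (Ccnb2) at 651 ± 43.7 and 798 ± 129, the anaphase activator Cdc20 at 449 ± 29.0 and 535 ± 1.48, and the midzone bundler Prc1 at 274 ± 77.7 and 344 ± 60.2 (SD, n = 3 and 2). In XmO against XX_Paf 11 of the 14 were lower in XmO (median -0.16). Aurkb, a kinase of the centromere and midzone, averaged 48.4 ± 1.48 in XmO, below the Y-linked background, and 144 ± 91.2 in XX_Paf (SD, n = 3 each; limma adjusted p = 0.877). Cenpa, the centromeric histone, had a higher estimate in XmO (0.60, SE 0.25). In XpO against XX_InX 8 of the 14 were higher in XpO (median 0.044), where the mitotic kinesins had a median of 0.20. All of the 14 are also among the tested markers of dividing cells, so the values of these lists are not separate observations. The summed intensity of 21 tested markers of dividing cells (24 of 27 measured) was 6974 to 7159.8 in XmO and 8173 to 8197 in XpO, without overlap, and 7396 to 7782 in XX_Paf and 7582 to 7834 in XX_InX; of the measured markers Bub1, Cenpe and Mcm6 were too dim to test. The part of dividing cells in the mitotic kinesin values was not tested. Of 5 tested radial glia and astrocyte markers 3 had lower and 2 higher estimates in XmO than in XpO (median -0.050). In RNA of a whole tissue, a difference in the share of dividing cells and one in the amount of these RNAs per cell cannot be told apart.

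**Figure D4:**
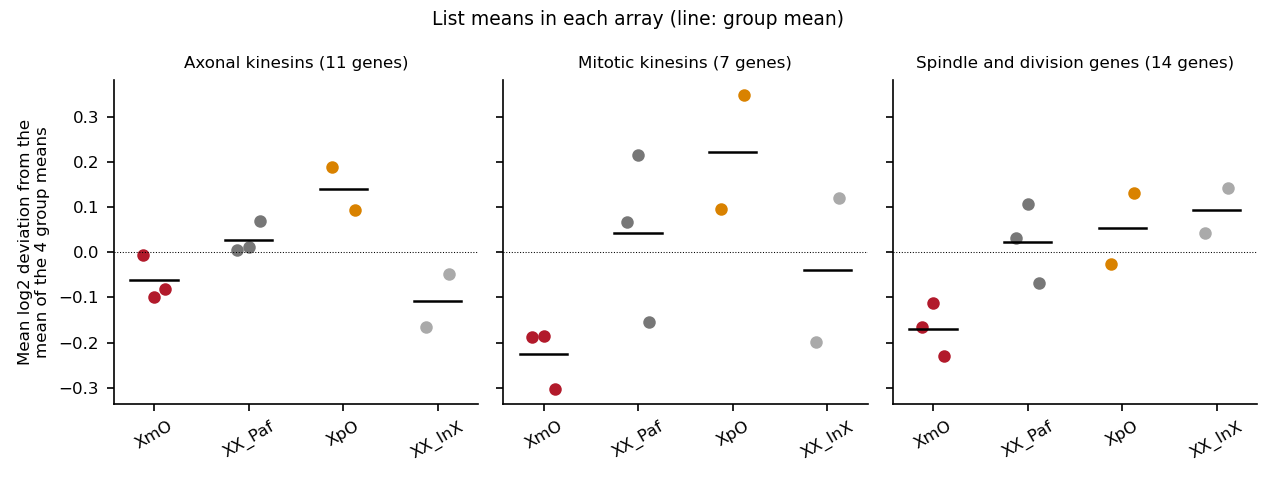
Each point is 1 array: the mean over a list of the log2 deviation from the mean of the 4 group means, for axonal kinesins, mitotic kinesins and spindle and division genes, with a line at the group mean. The 3 XmO arrays are the lowest for the mitotic kinesins except that XX_InX 1 (-0.20) lies below XmO 1 (-0.19) and XmO 2 (-0.18), and XpO 18 is the highest.

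The adaptors and regulators that load and steer the motors were measured for 13 of 22 genes listed, and all 13 were tested. In XO against XX 8 had higher and 5 lower estimates (median 0.013), with 0 called by limma. Mapk8ip1 encodes JIP1, a scaffold that joins kinesin light chain to cargo. It averaged 2234 ± 105 in XmO and 1436 ± 389 in XX_Paf (SD, n = 3 each), and 2233 ± 203 in XpO and 2065 ± 3.04 in XX_InX (SD, n = 2 each). The log2 fold change was 0.67 (SE 0.16, limma adjusted p = 0.520) in XmO against XX_Paf and 0.39 (SE 0.12, limma adjusted p = 0.9995) over both crosses. Next by p in XO against XX were Fez1, a kinesin adaptor of axons (0.088), Nde1, a dynein regulator of dividing progenitors (-0.17), and Nudc, another dynein regulator (0.19).

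The difference of the monosomy effects between the crosses (the effect in the Paf cross minus that in the In(X) cross) was lower than 0 in estimate for 32 of 42 motor probe sets, with a median of -0.21 against 0.015 for all tested probe sets. By limma 0 of 42 passed, against 0.023% of all. Opposite effects without overlap in either cross were found for 1 of 42 (Kif11), against 2.02% of all. At an unadjusted p under 0.05 stood 3 of 42, all lower (5.91% of all): Kif11, Dync1i2 (-0.51, SE 0.22; -0.75 to -0.26 when each array was left out) and the brighter probe set of Kif1b (-0.63, SE 0.28; -0.87 to -0.39 likewise), a motor of mitochondria and synaptic vesicle precursors. That Kif1b probe set was at 413, 332 and 353 in XmO and 386, 469.9 and 463 in XX_Paf, and at 528 and 381 in XpO and 307 and 396 in XX_InX, overlapping in both crosses. The dimmer one, at 82.7, 92.6 and 87.1 in XmO and 77.2, 44.4 and 54.0 in XX_Paf, and at 59.2 and 65.1 in XpO and 117 and 57.0 in XX_InX, had the opposite sign (1.01, SE 0.64). It did not exceed the Y-linked background on 5 of 10 arrays.

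XX_Paf against XX_InX compares the crosses when both X chromosomes are present. It shares its XX_Paf and XX_InX arrays with the comparisons above. Of 42 probe sets 0 passed by limma (0.0805% of all did), 6 had an unadjusted p under 0.05 (13.8% of all) and 13 had groups that did not overlap (37.1% of all). Dctn2, the dynactin subunit dynamitin, was higher in estimate in XX_Paf on both probe sets. The brighter was at 1689, 1384 and 1372 in XX_Paf and 1110.1 and 968 in XX_InX (log2 fold change 0.51, SE 0.16; limma adjusted p = 0.220). The dimmer (suffix f) was at 1449, 1147 and 1269 in XX_Paf and 763 and 1036 in XX_InX (0.53, SE 0.19; limma adjusted p = 0.265). On neither probe set did the groups overlap. In XO animals the brighter Dctn2 probe set was at 1311, 1640.2 and 1341 in XmO and 1522 and 1156 in XpO, which overlapped, and the dimmer one at 1223, 1217 and 1238 in XmO and 1219 and 805 in XpO, where XpO 18 was low and XpO 15 lay among the XmO arrays. Dync1i2 was higher in estimate in XX_Paf (0.44, SE 0.15). Dctn5, of the complex's pointed end, was lower in estimate, at 1530.5, 1385 and 1420.5 in XX_Paf and 1764 and 1658 in XX_InX (log2 fold change -0.24, SE 0.11), and Dynll1 was at 8812, 8585 and 9056 in XX_Paf and 10969 and 9547 in XX_InX (log2 fold change -0.22, SE 0.10; suffix f). Kifc3 had 1.21 (SE 0.46), with the low value on XX_InX 19 given above.

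All Paf cross arrays were also compared with all In(X) cross arrays within the same model, a comparison added after the values were seen. By limma 0 of 42 motor probe sets passed (0.104% of all did), 5 had an unadjusted p under 0.05 (12.7% of all), and 3 had groups that did not overlap in XO or in XX (4.73% of all): Kif5a, Klc4 and Dctn5. The 5 were the brighter Kif5a and dimmer Klc4 probe sets, Dynll1 and both probe sets of Dctn2. Dctn2 had estimates of 0.305 (brighter) and 0.418 (dimmer), higher in the Paf cross, though XmO and XpO overlapped on both. The brighter Kif5a probe set (suffix s) was at 313, 523 and 478 in XmO and 609.8 and 668 in XpO, and at 449, 349.5 and 527 in XX_Paf and 603 and 578 in XX_InX. All 6 arrays of the Paf cross were below all 4 of the In(X) cross (log2 fold change -0.51, SE 0.16; limma adjusted p = 0.242). The dimmer Kif5a probe set was at 59.1, 88.9 and 46.3 in XmO and 79.7 and 96.2 in XpO, and at 74.5, 106 and 68.3 in XX_Paf and 94.6 and 58.5 in XX_InX, with overlap (-0.18, SE 0.31). It did not exceed the Y-linked background on 5 of 10 arrays, among them both XX_InX arrays. The dimmer Klc4 probe set (suffix s) had the opposite sign, at 121, 143 and 109 in XmO and 96.7 and 50 in XpO, and at 117, 122 and 135 in XX_Paf and 45.8 and 61.0 in XX_InX. Again the crosses did not overlap (log2 fold change 1.03, SE 0.27; limma adjusted p = 0.169). Neither XX_InX array rose over the Y-linked background on this probe set, and nor did XmO 7 or XpO 18. With XX_InX set to that background, the mean of XX_Paf was 1.24-fold higher. This ratio of means takes no account of sampling error, and XX_Paf against XX_InX was not called (limma adjusted p = 0.202). The brighter probe set had 0.015 in that comparison. The brighter Klc4 probe set was at 461, 594 and 634 in XmO and 583 and 547 in XpO, and at 492, 587 and 561 in XX_Paf and 513 and 568 in XX_InX, and did not separate the crosses (-0.0016, SE 0.12). Dctn5 was at 1571, 1624 and 1668 in XmO and 1673 and 1694 in XpO (-0.15 over both, SE 0.079), and Dynll1 at 9471, 8910.2 and 8924 in XmO and 10807 and 9140.0 in XpO (-0.17, SE 0.074). The blood genes also differed between the crosses, as given above, and their part in these values was not tested. The mitotic kinesins had lower estimates in the Paf cross for 7 of 7 genes, with a median of -0.15, against 0.015 for the axonal kinesins and -0.012 for all tested probe sets, and 14 division genes had -0.14. In XX_Paf against XX_InX alone the mitotic median was -0.013, with 5 estimates lower and 2 higher in XX_Paf. It was -0.46 in XmO against XpO. The division genes had medians of -0.13 and -0.24 in these 2 comparisons.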

How the data were processed

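The authors deposited linear intensities, 1 value for each array and probe set; arrays were brought to a common level by the authors, as their equal trimmed means show, and the algorithm behind them is not given in the sources used here. Genes came from GEO's platform annotation, chromosomes from a RefSeq gene table of assembly GRCm38.p6. Intensities under the 10th percentile of all (15) were raised to it, log2 was taken, and the 8695 of 12422 probe sets with a mean at or over the 30th percentile were tested. All 10 arrays entered 1 limma model (version 3.58.1, R 4.3.3) with a mean for each group, leaving 6 residual degrees of freedom; variances were moderated by eBayes with trend on. P-values were two-sided and adjusted by Benjamini and Hochberg over all tested probe sets in each contrast, and a call needed an adjusted p under 0.05. SD values are of linear intensities.

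Members and lists were chosen with earlier results of these data known. Probe sets shared by several genes (2 for Dynlt1 genes) were not members. By the naming rule, values per array are given for the 3 members of smallest p in each direction of each contrast, for the main motors and X-linked members, and for genes whose probe sets disagree; the 7th contrast, between crosses, and the bound for Klc4 were added after the values were seen. The model steps were tested on simulated data. The number of arrays limits the precision. With no scan dates in the sources used here, batches were not examined.

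Alternatives were another treatment of low values, filter, normalization, trend, sample set, each array left out, and the replicate number as a block.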

Additional observations from a re-analysis of the deposited data

Results flagged for a closer look

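Kif11 had estimates of opposite sign in the 2 crosses, with no overlap of arrays in either: 113, 104 and 101 in XmO against 125, 179 and 126 in XX_Paf, and 156 and 150.5 in XpO against 105 and 104 in XX_InX. The difference of the effects was -0.97 (SE 0.40) and did not pass its test (limma adjusted p = 0.832; -1.06 to -0.80 when each array was left out). Opposite effects without overlap in either cross were found for 1 of 42 motors and 2.02% of all tested probe sets. Kif11 is close to background: XmO 7 did not exceed the brightest Y-linked value on that array (137), and those of XX_InX 1 and 19 were 103 and 97.5.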

How the results depend on the processing

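Apart from the replicate block, the count of motor probe sets called was 0 under every alternative, in all 7 contrasts, except when certain arrays were left out. The block used only arrays with a shared number, among them no XpO array. It could be fitted only in XmO against XX_Paf and in XX_Paf against XX_InX. Leaving out each array gave 0 to 1 call in XX_Paf against XX_InX and in the contrast between crosses: Kifc3 in both without XX_InX 1 (adjusted p = 0.0147 and 0.0453), which leaves XX_InX 19, where Kifc3 is low, to stand for its group, and Klc4 between crosses without XpO 15 (1.27, adjusted p = 0.0469). A lone array is assumed to vary like the other groups. Axonal minus mitotic ranged, over the arrays left out, from -0.11 to 0.095 in XO against XX, 0.057 to 0.28 in XmO against XX_Paf, -0.22 to 0.078 in XpO against XX_InX, -0.029 to 0.33 in XmO against XpO, -0.21 to 0.20 in the difference between crosses, 0.063 to 0.23 in XX_Paf against XX_InX and -0.028 to 0.25 between crosses. Its sign thus rested on single arrays in all but XmO against XX_Paf and XX_Paf against XX_InX. Signs also turned, without 1 array, for Kifc3 (-0.053 to 1.02 in XO against XX, -0.059 to 2.08 in XpO against XX_InX) and Dynlrb1 (-1.48 to 0.12). Turns of sign were listed only where the estimate from all arrays was at least 1 SE from 0. Smaller estimates also changed sign, such as those of Kif20a (-0.50 to 0.74) and Kif4 (-0.29 to 0.21) in XO against XX. The counts of higher and lower estimates given above include estimates of any size. With the replicate block, only XmO 1 and 2, XX_Paf 1 and 2 and XX_InX 1 entered the fit. In XmO against XX_Paf it called 0 motors, and axonal minus mitotic was 0.23. So few arrays could hardly give a call, so that count says little. Same-numbered arrays did not deviate together (-0.12 to 0.032), so the numbers were not taken as pairs. The cause of these shifts was not tested.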

Other observations

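Kif9, a kinesin known from motile cilia and sperm, was under the threshold for testing on both probe sets, yet varied strongly between like arrays. The brighter was at 115, 20.5 and 134 in XmO and 80.3, 113 and 77.2 in XX_Paf, and at 16.7 and 22.8 in XpO and 94.4 and 19.9 in XX_InX. The dimmer was at 40.2, 7.40 and 48.1 in XmO and 48.9, 51.8 and 79.0 in XX_Paf, and at 6.10 and 13.2 in XpO and 9.10 and 18.9 in XX_InX. XpO 15, XpO 18 and XmO 2 were among the 4 lowest arrays on both. Above the Y-linked background stood 0 of 10 arrays for the dimmer and 3 of 10 for the brighter probe set.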
